A study of Mus musculus with 21 samples.

Results

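The smooth muscle contractile genes examined here are Acta2, Actg2, Myh11, Tagln, Cnn1, Smtn, Lmod1, Des, Mylk and Myocd. They were chosen by name, as genes whose products form or control the contractile apparatus of vascular and airway smooth muscle, and not by a measured value, though earlier results of these data were known at the time. All 10 were found among the 19938 genes on the array, each by 1 probe set (for example 10467124 for Acta2, 10383731 for Smtn and 10435345 for Mylk). Male C57BL/6 mice had the left lung removed (left pneumonectomy), after which the remaining lung grows, and RNA of the right lung was measured. Tissue was taken on day 0, before any surgery, on days 3, 7, 14, 28 and 56 after left pneumonectomy, and on day 56 after sham surgery. At each of these 7 conditions 1 array was made from the medial lobe, 1 from the cardiac lobe and 1 from the whole right lung, giving 21 arrays. The labels give no age, and do not say whether the 3 samples of a condition came from the same, different or pooled mice. The p-values below therefore measure the spread between these arrays, which may be partly technical. With 1 array per region and condition, that spread also includes any difference between regions in their response. No sham animals were sampled before day 56, so the early days are compared with unoperated day 0 lungs or with day 56 sham lungs.

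Smooth muscle cells wrap the airways and blood vessels of the lung. Their alpha and gamma actins slide past smooth muscle myosin once myosin light chain kinase has phosphorylated the light chain, and calponin, transgelin, smoothelin and leiomodin bind the actin filaments. Most genes of this apparatus are switched on by serum response factor (SRF) with its coactivator myocardin, through a DNA motif called the CArG box, and activated fibroblasts (myofibroblasts) switch on some of them too, Acta2 first of all.

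The promoter of Acta2 shows what such a motif looks like. The window below lies on the minus strand just upstream of the Acta2 start, at chr19:34255374-34255482 of GRCm38.p6, from RefSeq. Capitals mark its 2 matches to the CArG pattern CCNNNNNNGG, with a core of 6 bases in which at most 1 base is not A or T.
Acta2 promoter: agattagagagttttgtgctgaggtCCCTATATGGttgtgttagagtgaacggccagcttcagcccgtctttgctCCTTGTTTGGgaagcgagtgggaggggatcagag
Both matches, CCCTATATGG beginning 84 bases before the start and CCTTGTTTGG beginning 34 bases before it, have 1 such departure. Promoters of 6 members were in the table (Acta2, Cnn1, Des, Lmod1, Mylk and Smtn), each covering 300 bases around the start. Only the strand of the gene was searched, since a match to this pattern on 1 strand is also a match on the other. Acta2 was the 1 member of these 6 with a match of this kind, and 0 members had a core made of A and T throughout. Over all 32851 promoters of the table, 9.98% held a match with at most 1 departure and 1.63% an exact one. A match describes the letters of this window and is no evidence of binding.

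The arrays had medians between 5.98 and 6.18 on the log2 scale and correlated with each other at 0.963 to 0.996 over all probe sets. The whole-lung medians after surgery, sham included, were 6.11 to 6.18, above those of all lobe arrays (at most 6.09). The day 0 whole lung was at 6.05. The day 7 cardiac lobe array and the day 56 pneumonectomy whole-lung array stood apart in earlier work on these data, and results that rest on them are given with and without them. Lung identity was checked from marker lists: the mean of 12 alveolar epithelial markers lay between 11.24 and 12.03 on every array, and that of 12 endothelial markers between 9.61 and 10.87. The mean of 15 heart muscle markers ranged from 6.89 to 8.15 and that of 13 skeletal muscle markers from 5.59 to 6.99, the latter highest in the day 28 whole lung. Some contractile genes, such as Des, are also expressed in striated muscle. In bulk tissue, fewer cells of a type and less RNA per cell cannot be told apart.

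Across the course, none of the 10 contractile genes changed from day 0 at any time by the test used. Differences were tested in limma with terms for condition and region over all 21 arrays, and a gene was called where its p, adjusted by Benjamini-Hochberg over all 19938 genes, was under 0.05. At day 3, 0 of 10 members were called, beside 6.7% of all genes. On day 7 the count was again 0, beside 8.69%, and on day 14 it was 0 beside 1.2%. Day 28 gave 0 beside 0% of all genes, day 56 gave 0 beside 0.0903% and day 56 sham gave 0 beside 0.381%. Of the 60 member differences from day 0, 4 had an unadjusted p under 0.05, and the smallest adjusted p was 0.123. Over all genes the share with such an unadjusted p ran from 7.22% (day 28) to 29.6% (day 7) in these comparisons. The fitted differences lay between -0.70 (Cnn1, day 28) and 0.44 (Smtn, day 3) on the log2 scale. A test of any difference among the 7 conditions called 0 members, beside 7.76% of all genes. At an unadjusted p under 0.05 it held 1 member (Mylk), beside 22.0% of all genes. Among the 60 confidence intervals (95%, not adjusted for their number), the lowest limit was -1.29 (Cnn1, day 28) and the highest 0.90 (Actg2, day 3). A 2.45-fold lower level of Cnn1 and a 1.87-fold higher level of Actg2 on these days thus remained within them. The median difference of the members was 0.02 at day 3, 0.02 at day 7 and 0.07 at day 14, against 0.01, 0.03 and 0.01 for all genes. It was -0.09 at day 28, against 0.00 for all genes.

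**Figure D1:**
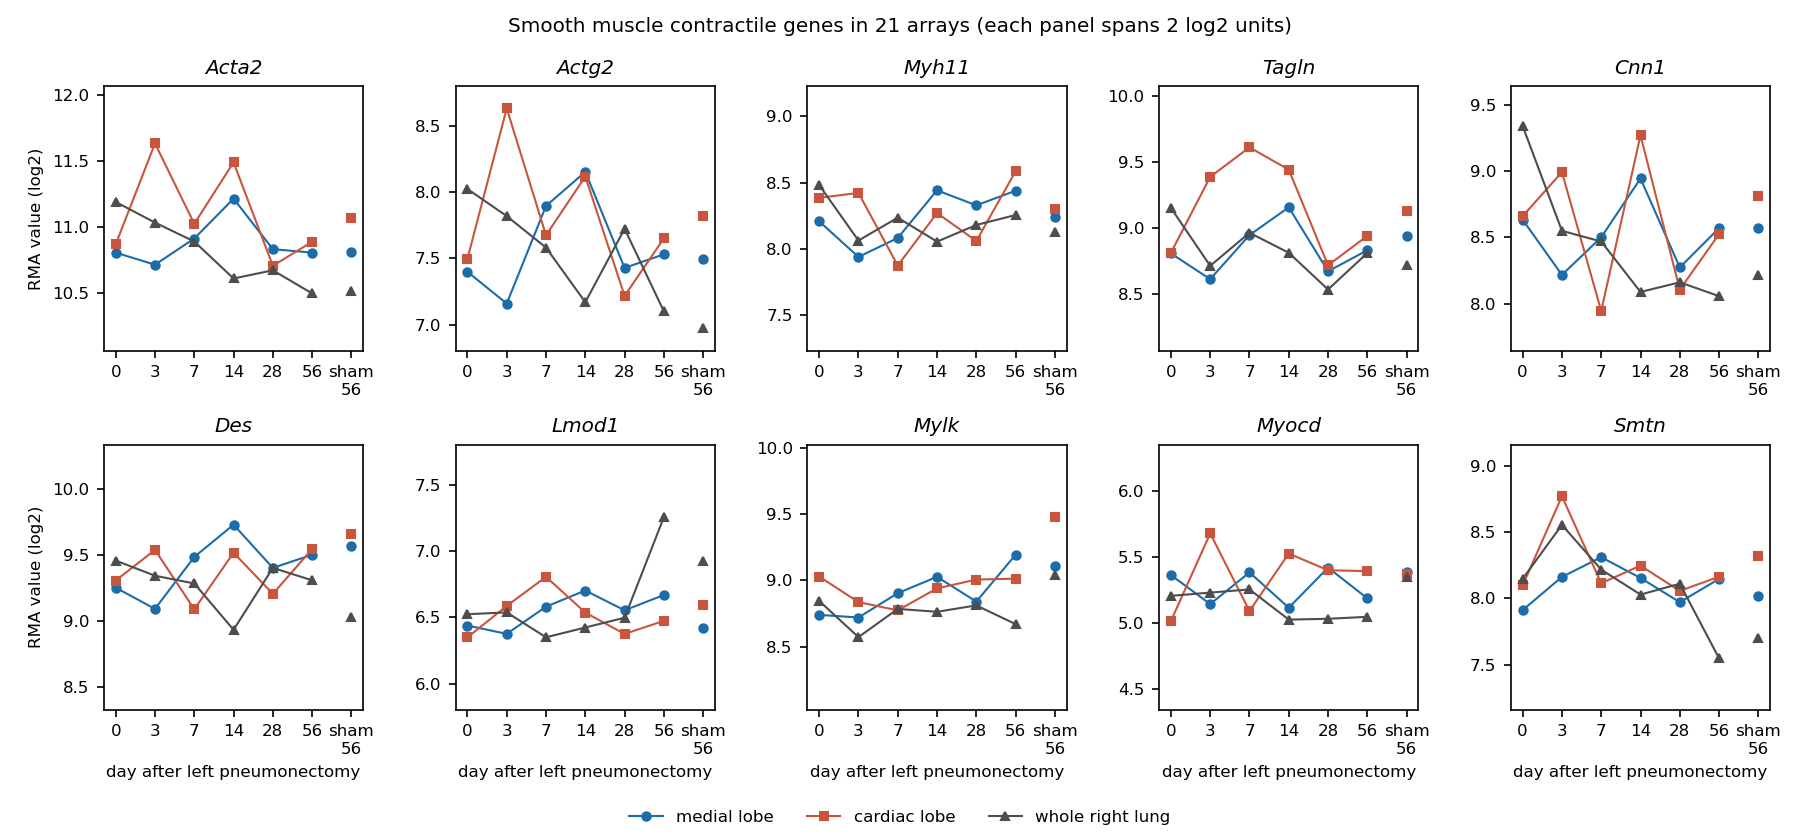
RMA values (log2) of the 10 contractile genes in each of the 21 arrays, by day after left pneumonectomy, with sham day 56 set apart on the right. Circles are the medial lobe, squares the cardiac lobe and triangles the whole right lung, 1 array each, and every panel spans 2 log2 units. The Acta2 and Actg2 panels show the day 3 cardiac lobe highest, at 11.63 and 8.63.

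**Figure D2:**
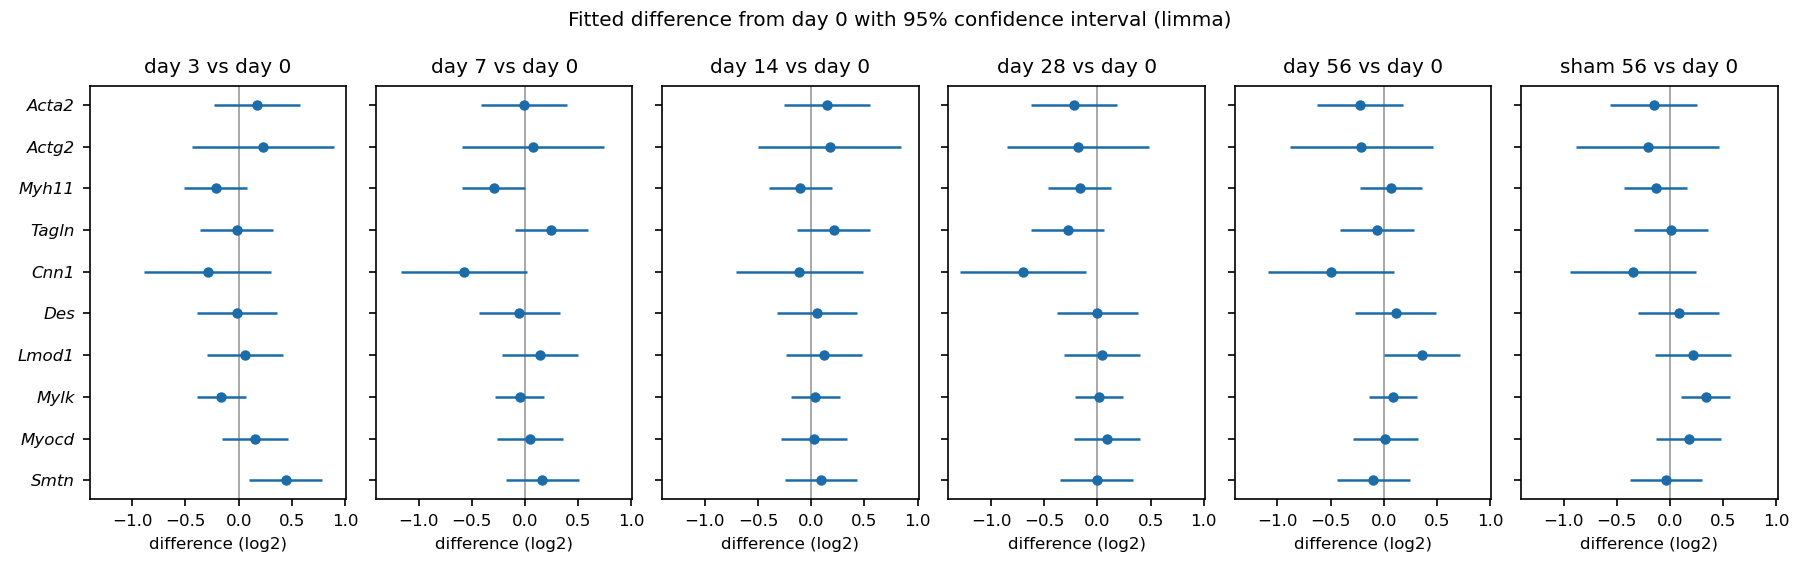
Fitted difference from day 0 (log2, points) with its 95% confidence interval (bars, limma) for each contractile gene at days 3 to 56 and after sham surgery. The interval lies clear of 0 for Smtn at day 3, Cnn1 at day 28, Lmod1 at day 56 and Mylk after sham surgery, and none of these passed adjustment over all genes.

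Acta2 encodes smooth muscle alpha actin, the main actin of the contractile filaments and the usual marker of myofibroblasts. In the medial lobe its values were 10.81 on day 0, 10.71, 10.91, 11.21, 10.83 and 10.81 on days 3, 7, 14, 28 and 56, and 10.81 after sham surgery. In the cardiac lobe they were 10.87 on day 0, then 11.63, 11.02, 11.49, 10.71 and 10.89, and 11.07 after sham. In the whole right lung they were 11.19 on day 0, then 11.03, 10.89, 10.61, 10.67 and 10.50, and 10.52 after sham. The cardiac lobe was high on days 3 and 14, the medial lobe on day 14, and the whole lung was highest before surgery, so every later condition overlapped day 0. On day 14 this held for all 10 members, while 15.3% of all genes did not overlap. The fitted day 3 difference was 0.17 ± 0.19 (standard error, limma adjusted p = 0.69), with an interval of -0.23 to 0.58. Acta2 was 10.95 ± 0.21 on day 0 (SD over the 3 regions, n = 3) and 11.13 ± 0.47 on day 3.

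Actg2, the gamma actin of visceral smooth muscle, moved with Acta2 from array to array. It was 7.40 on day 0 in the medial lobe and 7.16, 7.90, 8.15, 7.43 and 7.53 on the later days, with 7.50 after sham. In the cardiac lobe it was 7.50, then 8.63, 7.68, 8.12, 7.22 and 7.65, and 7.82 after sham, and in the whole lung 8.03, then 7.82, 7.58, 7.17, 7.72 and 7.10, and 6.97 after sham. The day 3 cardiac lobe was again the highest array and the groups overlapped throughout. The fitted day 3 difference was 0.23 ± 0.32, with an interval of -0.44 to 0.90 that admits either direction. The actin genes are nearly identical in coding sequence, so their probe sets may share signal. Acta2 followed skeletal actin Acta1 at r = -0.05, heart actin Actc1 at 0.20 and cytoplasmic actin Actb at 0.54 over the 21 arrays centred within region, as a description.

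Myh11, the smooth muscle myosin heavy chain and a specific marker of the lineage, ranged from 7.87 in the day 7 cardiac lobe to 8.59 in the day 56 cardiac lobe, with a median of 8.24 over 21 arrays. Its lowest adjusted p against day 0 came on day 7, with a difference of -0.29 ± 0.14 (limma adjusted p = 0.17). Without the 2 arrays that stand apart, of which the day 7 cardiac lobe is 1, it was -0.17.

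Among the actin-binding proteins, Cnn1 (calponin, which restrains the myosin motor on actin) had the lowest differences from day 0. It measured 8.63 in the medial lobe on day 0, then 8.22, 8.50, 8.95, 8.27 and 8.57, and 8.57 after sham. The cardiac lobe gave 8.66, then 8.99, 7.95, 9.27, 8.11 and 8.53, and 8.81 after sham. The whole lung gave 9.34, then 8.55, 8.47, 8.09, 8.16 and 8.06, and 8.22 after sham. The whole lung on day 0 was the highest Cnn1 value of all 21 arrays. On days 7, 28 and 56 all 3 arrays lay below all 3 day 0 arrays, which held for 29.5%, 15.1% and 13.9% of all genes, either way, at these days. The differences were -0.57 ± 0.28 on day 7 (limma adjusted p = 0.18), -0.70 ± 0.28 on day 28 (adjusted p = 0.63) and -0.49 ± 0.28 on day 56 (adjusted p = 0.39). Without the day 0 whole-lung array they were -0.24, -0.37 and -0.16.

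Tagln (transgelin, also called SM22, an actin cross-linker) was 8.81 in the medial lobe on day 0, then 8.61, 8.95, 9.16, 8.67 and 8.83, and 8.94 after sham. In the cardiac lobe it was 8.81, then 9.39, 9.61, 9.44, 8.72 and 8.94, and 9.13 after sham. In the whole lung it was 9.15, then 8.71, 8.96, 8.81, 8.54 and 8.81, and 8.72 after sham. The cardiac lobe held its 3 highest values, on days 3, 7 and 14. Day 28 lay below day 0 and also below day 14 in all arrays, the latter with a difference of -0.49 ± 0.16 (limma adjusted p = 0.43), where 10.3% of all genes did not overlap. Between day 14 and day 28, 0 of 10 members were called, beside 0.145% of all genes.

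Smtn (smoothelin, found in fully contractile smooth muscle) was the member with the highest difference at day 3. In the medial lobe it was 7.91 on day 0, then 8.16, 8.31, 8.15, 7.97 and 8.15, and 8.02 after sham. In the cardiac lobe it was 8.10, then 8.77, 8.11, 8.25, 8.06 and 8.16, and 8.32 after sham. In the whole lung it was 8.15, then 8.55, 8.22, 8.03, 8.11 and 7.55, and 7.70 after sham. All 3 day 3 arrays lay above all 3 day 0 arrays, by 0.25, 0.67 and 0.41 in the medial lobe, cardiac lobe and whole lung, and Smtn was the 1 member that did not overlap at day 3, where 27.5% of all genes did not. The difference was 0.44 ± 0.16, a 1.36-fold higher level with an interval of 0.10 to 0.79, and it missed the threshold (limma adjusted p = 0.12). It passed without the 2 arrays that stand apart (0.44, adjusted p = 0.033), where 14.2% of all genes were called, and without the day 3 medial lobe (0.62, adjusted p = 0.035). With all arrays in the fit 6.7% of all genes were called. Over 30 alternatives the adjusted p ran from 0.033 to 0.39. Against day 56 sham the day 3 difference was 0.48 ± 0.16 (limma adjusted p = 0.088), which also passed without the 2 arrays (0.48, adjusted p = 0.022).

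Lmod1 (leiomodin, which nucleates actin filaments) ranged from 6.35 to 7.26 with a median of 6.54, its highest value being the day 56 whole lung. The day 56 difference was 0.36 ± 0.17 (limma adjusted p = 0.35) and was 0.15 without the 2 arrays that stand apart, of which that whole lung is 1. Des (desmin, the intermediate filament protein that anchors the filaments) ranged from 8.93 to 9.73 with a median of 9.40, and its day 3 difference was -0.01 ± 0.18. Myocd (myocardin, the coactivator of SRF) ranged from 5.01 to 5.68, below the lowest array median of 5.98, so that its probe set was dim on every array and limits what can be said of it.

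Mylk, encoding the kinase that phosphorylates the myosin light chain and so starts contraction, was the member with results past the threshold, against sham lungs and between regions. A longer product of the gene is also made by endothelial cells. In the medial lobe it was 8.74 on day 0, then 8.72, 8.90, 9.03, 8.84 and 9.19, and 9.11 after sham. In the cardiac lobe it was 9.03, then 8.84, 8.77, 8.94, 9.01 and 9.01, and 9.48 after sham, and in the whole lung 8.84, then 8.57, 8.78, 8.76, 8.81 and 8.67, and 9.04 after sham. The 3 sham arrays lay above all 3 day 0 arrays and 14% of all genes did not overlap in that comparison. After pneumonectomy only the day 56 medial lobe reached the lowest sham value.

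Against the day 56 sham lungs, Mylk was lower on day 3, at 0.708 of the sham level, with a difference of -0.50 ± 0.11 and an interval of -0.73 to -0.27 (limma adjusted p = 0.0086). It was the 1 member of 10 that passed in that comparison with all arrays in the fit, beside 7.67% of all genes in either direction and 3.21% lower. The call was lost in 1 of 21 fits that each left out an array, that without the sham cardiac lobe (-0.40, adjusted p = 0.071). On day 7 the difference was -0.39 ± 0.11 (adjusted p = 0.053), with 0 members called beside 4.52% of all genes. It passed in 4 of 21 fits that each left out an array (adjusted p from 0.033 to 0.28), and was -0.31 (adjusted p = 0.15) without the 2 arrays that stand apart. Days 14 and 28 had 0 members called against sham, beside 0.0652% and 0.186%. Against day 0 the day 3 value was -0.16 ± 0.11 (adjusted p = 0.46), and the sham lungs themselves were higher than day 0 by 0.34 ± 0.11 (adjusted p = 0.26), which did not pass. The comparisons with sham and with day 0 share the day 3 arrays, and sham differs from day 3 in surgery and in time. Endothelial markers moved alongside: against sham, 7 of 12 were lower on day 3 and 5 of 12 on day 7 at the same threshold, and their array means were 10.36 to 10.87 after sham against 9.61 to 10.41 on day 3. The heart muscle marker means were 7.82 to 8.15 after sham and 6.89 to 7.41 on day 3. The part of these markers in the Mylk difference was not tested.

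At day 56, pneumonectomy and sham lungs could be compared at the same day. None of the 10 contractile genes was called, beside 0.336% of all genes, and 1 had an unadjusted p under 0.05, beside 8.18% of all genes. That was Mylk, at 8.96 ± 0.27 after pneumonectomy and 9.21 ± 0.24 after sham (SD over the 3 regions, n = 3). The difference was -0.25 ± 0.11 (limma adjusted p = 0.58). The groups of all 10 members overlapped, where 7.23% of all genes did not. The differences of the other 9 were smaller than that of Mylk, with intervals that reached from -0.74 (Cnn1) to 0.67 (Actg2). From one day to the next in the course, 0 members were called between days 3 and 7, 7 and 14, and 28 and 56, beside 0.0652%, 0.727% and 0% of all genes, and 0 of these 30 member tests had an unadjusted p under 0.05. Over all genes 10.4%, 12.5% and 5.54% had such a p at these steps. No member was free of overlap between days 3 and 7 or 7 and 14, where 11.1% and 11% of all genes were. Tagln alone was between days 28 and 56, where 6.62% were, with all 3 arrays higher on day 56.

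Mylk was the member that differed by region. The mean of its medial and cardiac lobe values was above the whole right lung at all 7 conditions, by 0.04 to 0.43. Singly, the day 0 medial lobe (8.74 against 8.84) and the day 7 cardiac lobe (8.77 against 8.78) lay below the whole lung. The fitted difference was 0.19 ± 0.06, that is 1.14-fold, with an interval of 0.06 to 0.32 (limma adjusted p = 0.031). Mylk was the 1 member of 10 called, beside 29.1% of all genes (20.3% higher in the lobes and 8.79% lower), so the members' share was not above the background. The call rested on several arrays: it was lost without the day 14 medial lobe (adjusted p = 0.051) and without the whole lungs of day 3 (0.056), day 14 (0.071), day 56 after pneumonectomy (0.100) or sham (0.075). Of the members, 9 of 10 had fitted differences above 0, with a median of 0.17 against 0.01 for all genes. Acta2, at 0.21 ± 0.11 (adjusted p = 0.15), and Tagln, at 0.18 ± 0.09 (adjusted p = 0.14), did not pass. Without the day 0 whole lung both passed, with 0.30 and 0.27, in a comparison that called 29.1% of all genes with all arrays in the fit. Endothelial markers were higher in the lobes for 11 of 12 genes (median 0.48), pericyte markers for 7 of 14 and contractile partner genes for 8 of 25, while mesothelial markers were lower for 6 of 12. The part of this difference in makeup in the Mylk value was not tested. Whole-lung arrays after day 0 also had higher medians over all probe sets than any lobe array. With each array centred on its median, Mylk, Myocd and Tagln were called. Centring adds the same amount to this difference for every gene, so the added calls are not particular to the members. The share of all genes called in that fit is not given here, and the Myocd probe set was dim.

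Between the cardiac and the medial lobe, 0 of 10 members passed, beside 0.0903% of all genes. Tagln had the lowest p, higher in the cardiac lobe at all 7 conditions with a difference of 0.30 ± 0.11 (limma adjusted p = 0.37). Its gap between the lobes was widest on days 3 and 7.

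Single arrays showed the members high or low together, in ways that differed by region. These patterns were picked out after the values were seen, rest on 1 array per region and condition, and have no test. On day 3, 8 of 10 members were above day 0 in the cardiac lobe and below it in the medial lobe, a pairing found in 16.8% of all genes. Acta2 was 0.76 higher and Actg2 1.14 higher in the cardiac lobe, against -0.09 and -0.24 in the medial lobe. On day 14, 7 of 10 were above day 0 in both lobes and below it in the whole lung, against 9.69% of all genes, Cnn1 by 0.31 and 0.61 in the lobes and -1.25 in the whole lung. In the whole lung, 7 members (Acta2, Actg2, Myh11, Tagln, Cnn1, Des and Mylk) were below their day 0 value on all 5 days after pneumonectomy. Over all genes 18.8% were. The sham whole lung was also below day 0 for 6 of these 7, all but Mylk, with Acta2 at -0.67 and Cnn1 at -1.13. Of all genes below day 0 on all 5 days in the whole lung, 88.4% were below it after sham too, so this is not particular to the members. All these differences share the same day 0 array. For Cnn1 the 5 values after pneumonectomy ran from -1.29 to -0.79 relative to the single day 0 array. That array had a lower median over all probe sets (6.05) than the later whole lungs (6.11 to 6.18), the opposite direction to these members. Its values were more spread out, with an interquartile range of 3.76 against 3.39 to 3.66 in the later whole lungs. The part of array medians and spreads in the whole-lung pattern was not tested. The test of a different early response (days 3 and 7 against day 0 and sham) between regions called 0 members and 0% of all genes, both for the cardiac against the medial lobe and for the lobes against the whole lung. Its lowest member p was that of Tagln in the cardiac lobe, with a difference of 0.62 ± 0.32 (limma adjusted p = 0.96). At an unadjusted p under 0.05 the same tests held 0 members and 868 and 447 genes.

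After the region means were taken off, several members varied together over the 21 arrays. The 45 pairs had Pearson r from -0.43 to 0.93 with a median of 0.32, and from -0.34 to 0.92 with a median of 0.37 over the 19 arrays without the 2 that stand apart. The highest was Acta2 with Actg2 at 0.93, followed by Acta2 with Cnn1 at 0.81 and Actg2 with Smtn at 0.76. Myh11 went with Des at 0.71 and Acta2 with Tagln at 0.69. Lmod1 and Mylk followed the mean of the other 9 at -0.05 and 0.11. These points share array, RNA sample and normalization and are a description. Of genes outside the group, those most like the members' mean were Krt8 (r = 0.77), Med19 (0.76), Sbspon (0.75), Myl9 (0.73), Chil1 (0.73), Hspa13 (0.73), Smarcb1 (0.73) and Wfs1 (0.72). Myl9, the smooth muscle myosin light chain, is the substrate of the Mylk kinase and the single listed contractile partner among these 8, and its r was 0.85 without the 2 arrays.

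**Figure D3:**
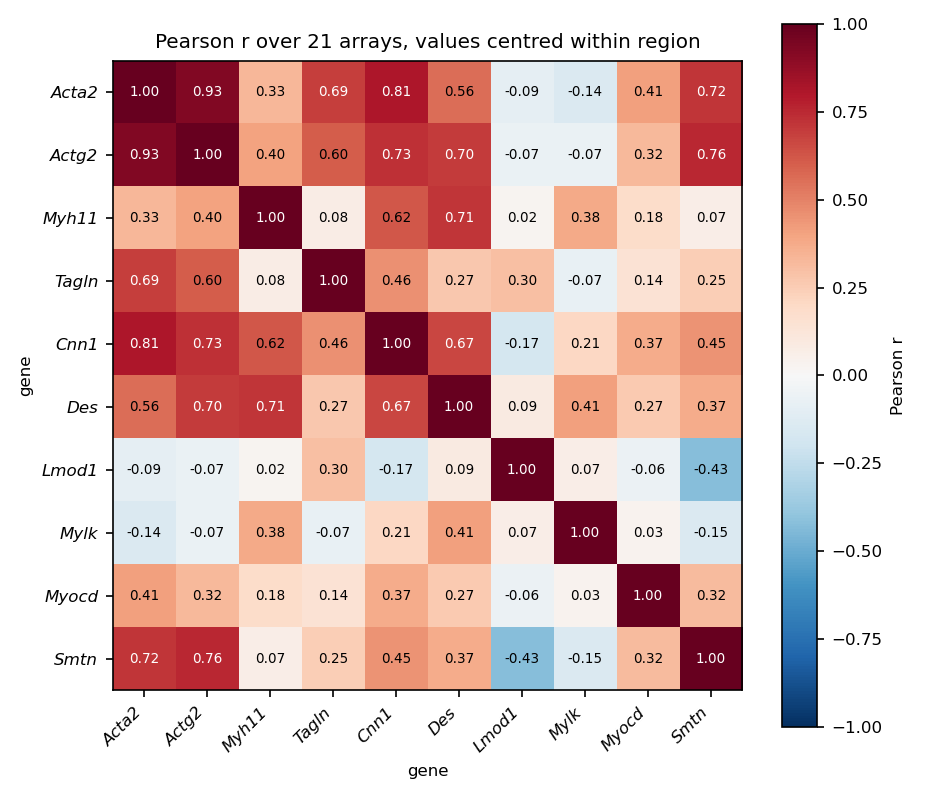
Pearson r between each pair of contractile genes over 21 arrays, after the mean of each region was subtracted, with red for positive and blue for negative values. The highest values are among Acta2, Actg2, Cnn1 and Smtn, up to 0.93, although Cnn1 with Smtn is 0.45. The lowest is that of Lmod1 with Smtn, -0.43.

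The rest of the contractile pathway was followed through lists of genes chosen by function. Of 25 measured contractile partners (proteins of the filaments, dense bodies and calcium store), 1 rose and 1 fell at day 3, beside 3.97% and 2.73% of all genes. Pdlim7, a LIM-domain adaptor on actin, rose by 0.43 ± 0.11 (limma adjusted p = 0.028) and Synm, the intermediate filament protein synemin, fell by 0.47 ± 0.14 (adjusted p = 0.049). None was called on days 7 and 14. Without the 2 arrays that stand apart, 1 rose and 4 fell at day 3, in a fit that called 14.2% of all genes there (6.42% higher and 7.75% lower) in place of 6.7%. The contractile partners higher in the lobes than in the whole lung were led by Pln (phospholamban, 0.81 ± 0.24, adjusted p = 0.021) and Vcl (vinculin, 0.44 ± 0.07, adjusted p = 5.7e-04).

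Of 23 measured genes that control contraction, 1 rose and 1 fell on each of days 3 and 7, the latter beside 3.73% and 4.97% of all genes, and without the 2 arrays 2 rose and 5 fell on day 3, again beside 6.42% and 7.75%. Rgs4, which damps signals from G protein-coupled receptors, rose by 1.71 ± 0.24 at day 3 (limma adjusted p = 5.7e-04) and by 1.16 ± 0.24 at day 7 (adjusted p = 0.011). Gucy1b1, the beta subunit of the nitric oxide receptor that relaxes smooth muscle, fell by 0.66 ± 0.16 at day 3 (adjusted p = 0.024). Agtr1a, an angiotensin receptor, fell by 0.67 ± 0.17 at day 7 (adjusted p = 0.025). On day 14 none was called, and Rgs4 was closest to the threshold (adjusted p = 0.061).

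Of 20 regulators of the SRF and myocardin programme, 2 rose and 2 fell at day 3, 0 were called at day 7 and 1 rose at day 14, when 0.497% of all genes rose and 0.707% fell. Tbx18, a transcription factor of mural and mesothelial cells, rose by 0.52 ± 0.08 (limma adjusted p = 8.4e-04) and Foxs1, a forkhead factor, by 0.36 ± 0.08 (adjusted p = 0.0092). Mrtfb, a relative of myocardin that also partners SRF, fell by 0.36 ± 0.10 (adjusted p = 0.049), and Hopx, an inhibitor of SRF that is also a marker of flat alveolar cells, fell by 0.33 ± 0.09 (adjusted p = 0.042). Heyl, a Notch target, rose by 0.66 ± 0.13 at day 14 (adjusted p = 0.016). Without the 2 arrays, 3 rose and 4 fell at day 3, beside the same 6.42% and 7.75%. Of 17 measured SRF targets of the general cytoskeleton, 0 were called on days 3, 7 and 14. Of 14 pericyte markers, which include Gucy1a1, Gucy1b1, Rgs5 and Notch3 of the lists above, 1 rose and 1 fell at day 3 and 0 were called at day 7.

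The matrix genes of activated fibroblasts and myofibroblasts did change over the days when the contractile genes gave no call. Of 16 measured, 7 rose at day 3, 10 at day 7 and 3 at day 14, with median differences of 0.89, 0.92 and 0.68, and 0 fell. Col1a1 (collagen I) rose by 2.12 ± 0.40 at day 3 (limma adjusted p = 0.0039), and Tnc (tenascin C) and Eln (elastin) rose by 2.40 ± 0.31 and 1.91 ± 0.35 at day 7 (adjusted p = 7.8e-04 and 0.0051). Eln rose by 1.97 ± 0.35 at day 14 (adjusted p = 0.0085). Without the 2 arrays, 11, 7 and 8 matrix genes rose on days 3, 7 and 14, beside 6.42%, 2.45% and 1.62% of all genes. With the lobes alone 3 rose on day 3, beside 1.14%. All 14 measured mitosis genes rose on both day 3 and day 7, and 8 of 12 mesothelial markers rose at day 3. The member mean over the 10 genes was between 8.12 (day 28) and 8.33 (day 14) by condition and between 7.99 (day 14 whole lung) and 8.65 (day 3 cardiac lobe) by array. Within a condition the arrays spanned from 8.01 to 8.65 on day 3 but from 8.08 to 8.17 on day 28.

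**Figure D4:**
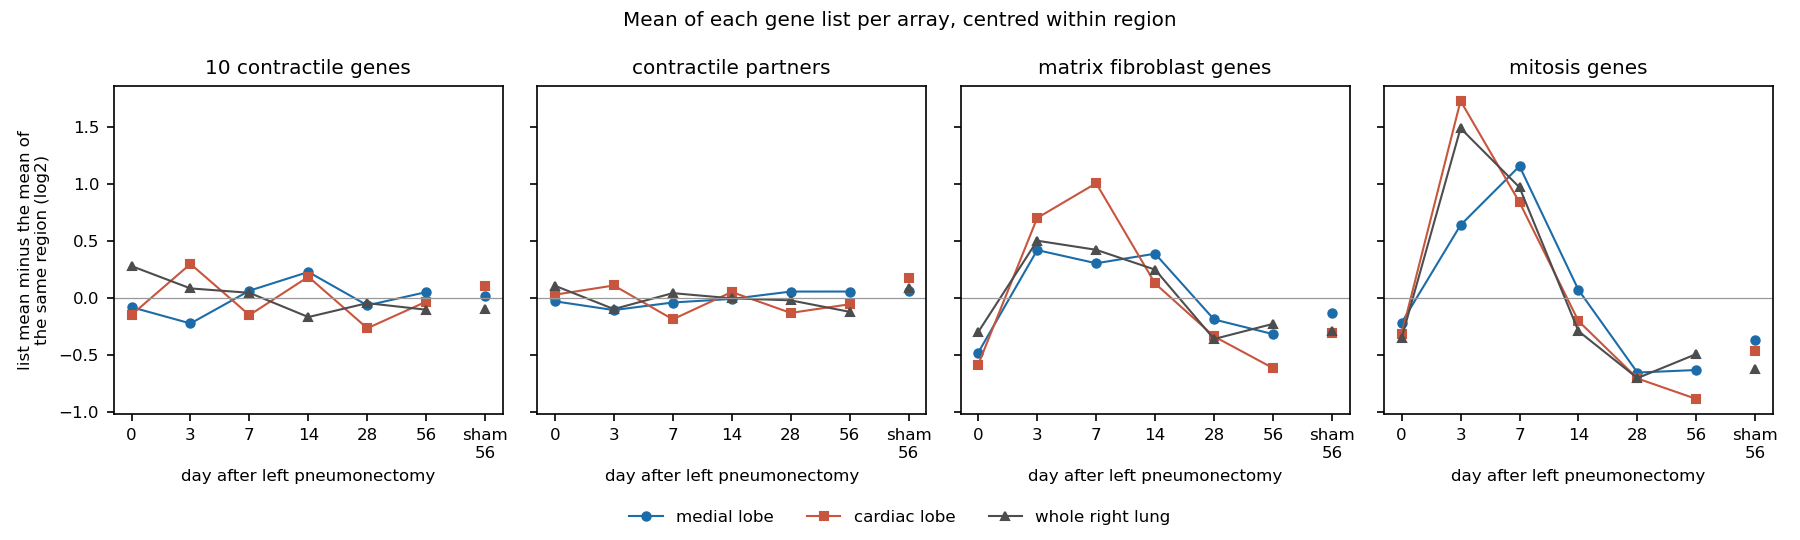
Mean log2 value of each gene list per array, minus the mean of the same region over 7 conditions, by day after left pneumonectomy with sham day 56 set apart. Circles are the medial lobe, squares the cardiac lobe and triangles the whole right lung. The contractile genes lie on both sides of 0 at every condition other than day 28, whereas matrix and mitosis genes are above 0 in all 3 regions at days 3 and 7.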

How the data were processed

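Each of 21 samples was labelled with biotin and hybridised to its own Affymetrix array, per the labels. The values deposited by the authors are on the log2 scale, for 35556 probe sets, and came from RMA (background correction, normalization between arrays and summary of probes), per the submitters' processing notes; no version of RMA is given in the sources used here. The number of arrays limits the precision. Per the labels' protocols a kit that amplifies from the 3' end was used, but the probe sets are those of a whole-transcript design, so the chemistry could not be settled. In the platform annotation 21789 probe sets had 1 gene symbol, 1621 had several and 12146 had none. A RefSeq gene table of GRCm38.p6 held 21698 of the first kind. Each gene was represented by its brightest probe set. Additive terms for condition and region were fitted with limma 3.58.1 in R 4.3.3, with 12 residual degrees of freedom, and the regions carry the replicate numbers, so region is the block. The difference in early response was fitted on region by phase means. Errors after ± are standard errors unless SD is stated. The script was tested on simulated data. Members and lists were chosen with earlier results of these data known. All members are named; from other lists, up to 4 genes that passed, by size of difference, or the 2 with the smallest p, are candidates for naming; and the 8 genes most like the members' mean. Alternatives covered the block, probe sets, dim genes, moderation, centring, regions, arrays, control and each array left out.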

Additional observations from a re-analysis of the deposited data

How the results depend on the processing

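Counts of called members were recomputed under 30 alternatives, 457 values in all, of which 446 stayed within 1.5 times the value reported and 11 did not. The value reported was 0 in every comparison except the lobes against the whole lung, and a 0 that stayed 0 was counted as within. Most of the 446 are therefore repeated counts of 0 and are no measure of stability. For day 3 against day 0 the count of 0 became 1 with sham as the control (Mylk, lower), 1 without the 2 arrays that stand apart (Smtn, higher), and 0 to 1 when each array was left out in turn. For the lobes against the whole lung the count of 1 became 3 when each array was centred on its median (Mylk, with Tagln at 0.27 and Myocd at 0.24), and ran from 0 to 3 when each array was left out in turn. Centring shifts this difference by the same amount for every gene. In the main fit 29.1% of all genes were called there. For any condition, 0 became 1 without the 2 arrays (Mylk), in a test that called 7.76% of all genes with all arrays in the fit. Without the replicate block, that is with no region term, the count stayed at 0 in each condition comparison. Of 4275 single-member values, 7 newly passed, 5 no longer passed and 242 uncalled ones changed sign; 0 called values changed sign. The causes were not tested. List counts under these alternatives were added after the data were seen. With 3 arrays a condition, the 1.36-fold difference of Smtn at day 3 lay near what could be called for that gene. Standard errors of the members against day 0 ran from 0.11 (Mylk) to 0.32 (Actg2), so what could be called differed by gene and comparison.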
